A study of Mus musculus with 12 samples.

Results

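Natural regulatory T cells (nTregs) and CD4 effector T cells were compared after both had been cultured with azacitidine (AzaC), a cytidine analogue that blocks DNA methyltransferases once it is built into DNA. The comparison sets the 3 nTreg AZA arrays against the 3 CD4 AZA arrays, 6 of the 12 arrays of the series, and covers 22180 genes. For each gene it uses the probe set that carries exactly 1 gene symbol and, where several do, the brightest over the 12 arrays. The other 6 arrays, nTreg PBS and CD4 PBS, hold the same populations without the drug and serve here only to show where the AzaC comparison differs.

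The mouse cells came from spleen. Per the labels' protocols, the nTreg donors were B6.Foxp3GFP mice, in which green fluorescence reports Foxp3, and the T cells depleted of Tregs came from the cross B6.Foxp3GFP x B6.CAGDSRED, whose cells are also red. The strain field does not make this distinction and lists, for all 12 samples, the cross of B6.Foxp3GFP with B6.Cg-Tg(CAG-DsRed*MST)1Nagy/J. Both populations were cultured together, 1 nTreg for every 10 effector cells, for 2 days with anti-CD3/CD28 beads at 1 bead a cell and human IL-2 at 500 U/mL, a stimulus that the controls received too. AzaC at 1 µM or PBS was present for 2 days more, and the cells were then sorted, nTregs as CD4+ DsRed- Foxp3GFP+ and effectors as CD4+ DsRed+ Foxp3GFP-. The Foxp3 reporter was part of the gate, so the Foxp3 difference checks the sort and is no independent result. The populations also differ in their donor mice by that protocol, and population and donor genotype cannot be told apart. The labels leave unstated whether replicates stem from different mice or culture wells. Each p-value therefore reflects how far samples scatter within their groups, pooled over all 4 groups, and that scatter may be technical.

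Tregs restrain other T cells. The transcription factor Foxp3 defines them, and beside it Tregs carry a set of surface receptors (Ctla4, Tigit, Tnfrsf18, Nrp1), enzymes that make adenosine (Entpd1, Nt5e) and suppressive cytokines such as Il10. Conventional CD4 effector T cells instead keep factors such as Satb1 and Lef1 and display CD40 ligand (Cd40lg), which Tregs repress. Foxp3 expression in Tregs rests on demethylated regulatory DNA, which is why DNA methyltransferase inhibitors are studied in these cells.

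Values are log2 signals after RMA normalization, a difference of 1 is a doubling, and the signals of different genes are not comparable with each other. A gene is called where its adjusted p in limma is under 0.05, with a Benjamini-Hochberg adjustment over the 22180 genes. Array medians lay between 6.67 and 6.80. The array nTreg PBS 1 stood apart, with a residual SD of 0.257 around its group mean and a mean correlation of 0.972 with the other arrays, against residual SDs of 0.114 to 0.192 for the other 11. It does not enter the AzaC difference itself, but it feeds the spread that all tests share. Foxp3 lay above every CD4 array in all nTreg arrays of both treatments, as the sort requires.

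With AzaC, 1498 of 22180 genes (6.75%) were called between nTregs and CD4 cells, 1013 higher in nTregs (4.57%) and 485 lower (2.19%). Of these, 245 were higher and 44 lower by 2-fold or more, and 34 and 5 by 4-fold or more. For 7169 genes (32.3%) the 3 values of one group did not overlap those of the other, and among the 1498 called genes this held for 1495, so a lack of overlap in a called gene adds little to the call. The median over all genes was −0.04 and the median SE of a difference 0.13. The number of calls was open to single arrays: it came to 2467 without nTreg PBS 1, to 896 without CD4 AZA 1, 993 without CD4 AZA 3, and 912, 959 and 900 without nTreg AZA 1, 2 and 3. A second quantile normalization over the genes kept gave 857 higher and 657 lower genes, so the share of higher genes among the calls dropped from 67.6% to 56.6%. Centring each array on its median moved it the other way, to 75.8% (1118 higher and 357 lower). In such bulk samples, fewer cells of a type and less RNA per cell cannot be told apart.

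Of the genes named, Enah had the largest difference. It encodes an actin filament elongation factor of the Ena/VASP family. Enah read 9.86, 9.70 and 9.94 in the nTreg AZA arrays and 6.19, 6.27 and 6.24 in the CD4 AZA arrays. All nTreg values lay far above all CD4 values, and the difference was 3.60 (SE 0.11, 95% interval 3.37 to 3.83; 12.1-fold; adjusted p 2.10e-10, limma). Frmd5, a FERM domain protein linked to cell adhesion, followed. It read 9.90, 9.67 and 10.39 in nTregs and 6.13, 6.83 and 6.77 in CD4 cells, with no overlap and a difference of 3.41 (SE 0.20; adjusted p 1.48e-07, limma). Gzmc encodes granzyme C, a serine protease of cytotoxic granules. It read 9.29, 9.24 and 9.45 against 6.03, 6.31 and 6.34, again without overlap, a difference of 3.10 (SE 0.17; adjusted p 8.35e-08, limma). The granzyme genes Gzmc, Gzmd, Gzmf and Gzmg are close relatives in 1 cluster, so probes may cross-hybridize, which was not tested. Gzmd (−0.25), Gzmf (0.00) and Gzmg (0.13) did not pass. Foxp3 itself read 12.72, 12.68 and 12.68 in nTregs and 9.39, 9.61 and 9.85 in CD4 cells. Its difference of 3.08 (SE 0.16; adjusted p 8.35e-08, limma) describes the sorted populations.

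The sequences upstream of these 4 genes are shown because they were the leading members and because CG pairs are the sites at which the DNA methyltransferases that AzaC blocks place their mark; DNA methylation was not measured. Each is the 250 bases before the RefSeq gene start (build GRCm38.p6), read 5′ to 3′ on the gene's strand, with every CG pair in capitals. Foxp3 lies at chrX:7579426-7579675 on the plus strand and is the first of 2 windows that the table holds for the gene. Enah lies at chr1:182019981-182020230, Frmd5 at chr2:121807058-121807307 and Gzmc at chr14:56234658-56234907, all on the minus strand.
Foxp3: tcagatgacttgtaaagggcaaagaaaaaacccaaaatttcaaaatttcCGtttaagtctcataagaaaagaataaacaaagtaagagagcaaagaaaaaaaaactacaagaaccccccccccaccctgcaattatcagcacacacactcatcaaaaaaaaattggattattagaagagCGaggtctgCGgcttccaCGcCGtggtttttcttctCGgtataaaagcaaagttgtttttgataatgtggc
Enah: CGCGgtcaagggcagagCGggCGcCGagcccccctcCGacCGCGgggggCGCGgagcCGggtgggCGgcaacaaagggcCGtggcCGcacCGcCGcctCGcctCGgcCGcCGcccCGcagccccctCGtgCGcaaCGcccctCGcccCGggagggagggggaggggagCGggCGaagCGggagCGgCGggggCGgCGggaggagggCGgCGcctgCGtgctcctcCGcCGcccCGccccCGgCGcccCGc
Frmd5: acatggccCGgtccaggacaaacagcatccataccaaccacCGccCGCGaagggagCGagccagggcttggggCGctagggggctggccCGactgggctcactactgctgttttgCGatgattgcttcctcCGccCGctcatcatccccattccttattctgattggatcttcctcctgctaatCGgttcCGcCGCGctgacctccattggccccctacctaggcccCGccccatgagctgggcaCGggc
Gzmc: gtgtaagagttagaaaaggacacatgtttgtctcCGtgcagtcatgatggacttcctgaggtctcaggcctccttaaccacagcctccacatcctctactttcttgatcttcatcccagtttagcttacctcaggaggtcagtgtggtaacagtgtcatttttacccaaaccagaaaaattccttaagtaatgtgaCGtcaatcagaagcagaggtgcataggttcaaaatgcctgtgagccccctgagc
The 4 windows differ widely in CG pairs. Enah holds 42, more than nearly all genes (99.1% of the genes with a window hold at most as many). Frmd5 holds 16, Foxp3 6 and Gzmc 2, so these 4 leading genes do not share a CG content. The forkhead motif TGTTTAC, searched on both strands, was in none of the 4 windows, and 2.68% of all 16990 windows held it. Over the 1013 higher genes, 796 had a window, with a median of 14 CG pairs and 2.89% with the motif, and over the 485 lower genes 367 had one, with 12 pairs and 3.27%, against a median of 10 pairs over all windows. Among genes called at 2-fold or more, the median was 11 pairs for the higher and 6.5 for the lower ones, so the CG content of the called genes varied with the fold taken.

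**Figure D1:**
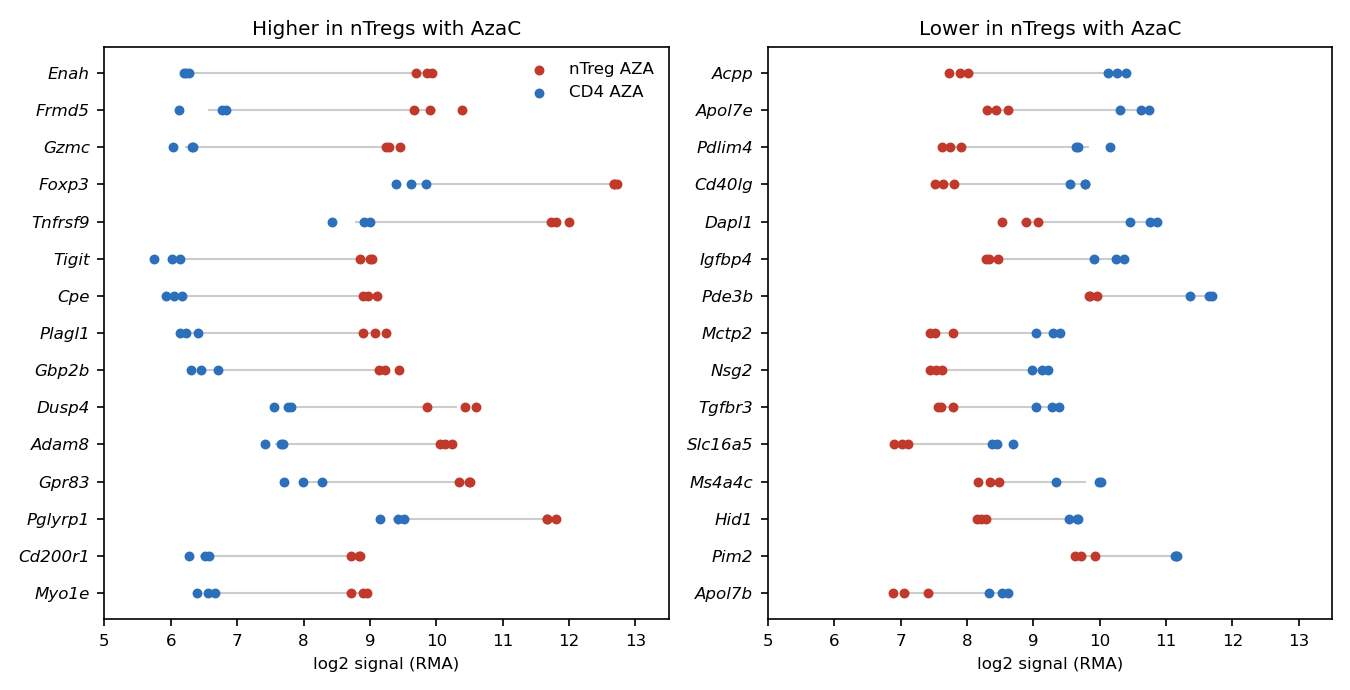
Log2 signal of the 15 named genes with the largest higher (left) and the 15 with the largest lower (right) difference in nTregs with AzaC. Gm17767 and Gm4956 (higher) and Mir342 (lower) fell within these ranks and were passed over. Each point is 1 array, red for nTreg AZA and blue for CD4 AZA, and the grey line joins the group means. In all 30 genes, which were chosen for this, the 3 red and 3 blue points do not overlap.

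Among the 15 leading higher genes were 4 receptors. Tnfrsf9 (4-1BB, a costimulatory receptor of activated T cells) read 11.73, 11.99 and 11.80 in nTregs and 8.43, 9.01 and 8.91 in CD4 cells, a difference of 3.06 (SE 0.17; adjusted p 8.35e-08, limma). Tigit, an inhibitory receptor that competes with CD226 for shared ligands, lay between 8.85 and 9.03 against 5.74, 6.02 and 6.14, a difference of 2.99 (SE 0.18). Gpr83, a G protein-coupled receptor long used as a Treg marker, differed by 2.45 (SE 0.16), and Cd200r1, an inhibitory receptor for CD200, by 2.34 (SE 0.14). In each of these 4 genes every nTreg array lay above every CD4 array, as is the case for nearly all called genes. Adam8, a membrane metalloprotease, differed by 2.55, and the secreted peptidoglycan-binding protein Pglyrp1 by 2.35. The rest of the leading group were the prohormone-processing enzyme Cpe (2.94), the zinc finger factor Plagl1 (2.81), the guanylate-binding GTPase Gbp2b (2.78), the MAP kinase phosphatase Dusp4 (2.58) and the motor protein Myo1e (2.31).

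Lower in nTregs, the leading gene was Acpp, a transmembrane acid phosphatase that makes adenosine from AMP. It read 7.73, 8.02 and 7.90 in nTregs and 10.40, 10.26 and 10.13 in CD4 cells, a difference of −2.38 (SE 0.13; adjusted p 9.28e-08, limma), with no overlap. Cd40lg, the ligand by which helper T cells activate B cells and dendritic cells, read 7.65, 7.80 and 7.52 against 9.77, 9.55 and 9.77, a difference of −2.04 (SE 0.22; adjusted p 4.19e-05, limma). The nTreg and CD4 values of Cd40lg stood well apart on all 6 arrays. Igfbp4, an insulin-like growth factor binding protein of naive T cells, differed by −1.82, Dapl1 by −1.86, the phosphodiesterase Pde3b by −1.68 and the TGF-beta co-receptor Tgfbr3 by −1.58. The kinase Pim2, which supports T cell survival, differed by −1.39, and the cytoskeletal adaptor Pdlim4 by −2.07. Of the remaining 7 leading lower genes, Apol7e (−2.11), Apol7b (−1.38) and Ms4a4c (−1.45) have near copies that probes may not separate, and Mctp2 (−1.66), Nsg2 (−1.58), Slc16a5 (−1.50) and Hid1 (−1.41) complete the group.

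The gene lists that follow were chosen with earlier results of these data known, so their counts describe the data and are no independent support. Among the transcription factors of the Treg programme, 9 of 27 were higher in nTregs and 5 lower, where 4.57% and 2.19% of all genes were. The list's median difference was −0.01, beside −0.04 for all genes, and turned positive (0.03) when arrays were centred on their medians, with calls in both directions. Ikzf2 (Helios, a factor of thymus-derived Tregs) read 9.61, 10.14 and 9.71 in nTregs and 7.61, 7.63 and 7.60 in CD4 cells, a difference of 2.20 (SE 0.13; adjusted p 1.08e-07, limma). Its CD4 values were nearly level and its nTreg values all higher. Batf, an AP-1 factor of effector Tregs, differed by 1.40, Ikzf4 (Eos) by 1.00 and Tox by 0.79. The 5 lower members were Runx3 (−0.81), Ikzf1 (−0.69), Satb1 (−0.67), Bach2 (−0.52) and Foxp1 (−0.51). They are named because they make up the whole count.

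Surface molecules enriched on Tregs showed the highest share of calls among the 27 lists other than cell type markers. Of 26 genes, 20 were higher and 2 lower, beside 4.57% and 2.19% of all genes, with a median difference of 1.13. Such a list is chosen for Tregs, so its direction was given by the sort. Itgae (CD103, an integrin that binds E-cadherin) read a mean of 9.59 in nTregs and 7.60 in CD4 cells, a difference of 1.99 (SE 0.10). Nrp1, a semaphorin co-receptor of thymus-derived Tregs, differed by 1.30 (SE 0.17), Ctla4 by 1.02 (SE 0.11) and Tnfrsf18 (GITR) by 0.91 (SE 0.11). Il2ra, the high-affinity IL-2 receptor chain, lay between 13.56 and 13.60 in nTregs and between 13.08 and 13.16 in CD4 cells. Its difference of 0.46 (adjusted p 0.00589, limma) was small, and both populations were bright. The lower members, against the name of the list, were the semaphorin Sema4a (−1.22) and the chemokine receptor Ccr8 (−0.56).

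The effector molecules of suppression were higher in 9 of 18 cases and lower in 0 by limma, beside 4.57% and 2.19% of all genes. At an unadjusted p under 0.05, 0 were lower too, where 9.8% of all genes were. The median was 0.60. Nt5e (CD73, the ectoenzyme that makes adenosine) read 10.41, 10.69 and 10.26 in nTregs and 8.12, 8.52 and 8.29 in CD4 cells, a difference of 2.14 (SE 0.18; adjusted p 4.09e-06, limma). Lrrc32 (GARP, which holds latent TGF-beta on the Treg surface) differed by 1.90 and Il10 by 1.28. Il10 lay between 6.50 and 6.94 on the nTreg arrays and between 5.35 and 5.63 on the CD4 arrays, so the groups were apart. The 9 members that did not pass included Tgfb1 at 0.16 and Lgals1 at 0.02.

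The mirror list, genes usually lower in Tregs than in conventional CD4 cells, held 12 lower and 3 higher genes of 23. Of all genes, 2.19% were lower and 4.57% higher. The list's median was −0.53. Themis, a regulator of T cell receptor signalling, differed by −1.12 and Actn1, an actin cross-linker, by −1.26. Against the list's name, the T cell receptor adaptor Trat1 was higher by 1.77 (SE 0.12), the phosphatase Ptpn13 by 0.91 and the IL-7 receptor Il7r by 0.53. Naive and memory T cell genes, which share members with this list, were lower in 12 of 21 cases and higher in 2, with a median of −0.51. The lymph node homing receptor Ccr7 differed by −0.66 and the IL-6 receptor Il6ra by −1.14.

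**Figure D2:**
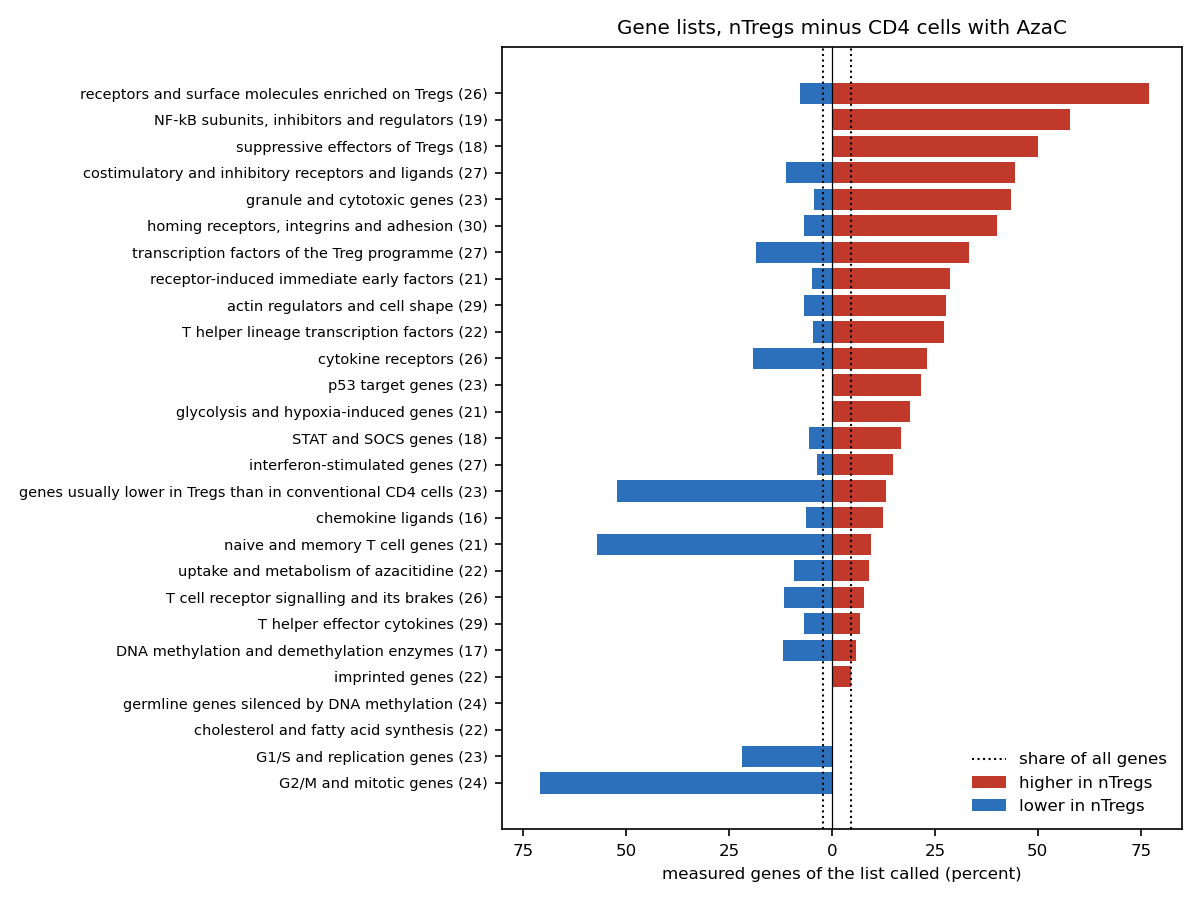
Share of the measured genes of each of 27 lists (number measured in brackets) called higher (red, to the right) or lower (blue, to the left) in nTregs with AzaC, in percent, without the cell type marker lists; dotted lines show the shares over all genes, 4.57% higher and 2.19% lower. Surface molecules of Tregs reach furthest to the right and G2/M genes furthest to the left.

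Of 29 effector cytokines 2 were higher (6.90%, beside 4.57% of all genes) and 2 lower (6.90%, beside 2.19%). Ifng lay between 6.97 and 7.15 in nTregs and between 6.97 and 7.19 in CD4 cells, with overlapping values and a difference of −0.02 (adjusted p 0.935, limma). Il2, the T cell growth factor, differed by −0.61 (adjusted p 0.0343, limma), but 5 of the AzaC arrays each cost the call when left out, with an adjusted p of up to 0.143 without nTreg AZA 1. Ltb, a subunit of the lymphotoxin complex, differed by 0.71 with an adjusted p of 0.0249 in limma, and lost its call without CD4 AZA 1, CD4 AZA 3 or any 1 nTreg AZA array (up to 0.108). Csf1 at 0.58 lost its call without CD4 AZA 3 (adjusted p 0.0702) and without nTreg AZA 3 (0.0582). Of the count of 4, Cd40lg alone was called without every array in turn. Chemokine ligands were called higher in 2 and lower in 1 of 16 cases, and Cxcl10, a chemokine for CXCR3-bearing cells, was the clearest at 1.03 (adjusted p 9.50e-05, limma). Ccl5 (0.68) and Ccl22 (−0.46) each lost the call when any nTreg AZA array was left out, at adjusted p values of 0.0681 to 0.138, and without CD4 AZA 1 (0.179 and 0.146). Ccl5 also lost it without CD4 AZA 3 (0.0568), and Ccl22 without CD4 AZA 2 (0.105) or CD4 PBS 1 (0.0532).

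Granule and cytotoxic genes were higher in 10 of 23 cases and lower in 1, beside 4.57% and 2.19% of all genes. Their median was 0.34. Gzmb, the main granzyme of killer cells and of activated Tregs, read 12.91, 12.97 and 12.96 in nTregs and 11.68, 12.02 and 12.06 in CD4 cells. The groups did not overlap, and the difference was 1.02 (SE 0.11; adjusted p 5.58e-05, limma). Rab27a, which docks granules at the membrane, differed by 1.69 and the granzyme B inhibitor Serpinb9 by 1.04. Rather than the whole granzyme family, Gzmb and Gzmc were the 2 members called, while Gzma (0.18) and Gzmk (−0.22) did not pass.

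Helper lineage factors were higher in 6 of 22 cases and lower in 1, beside 4.57% and 2.19% of all genes. Maf, a factor that drives Il10, read 9.88, 9.60 and 9.58 in nTregs and 7.39, 6.87 and 7.88 in CD4 cells, a difference of 2.30 (SE 0.22; adjusted p 1.48e-05, limma). Its CD4 values were widely spread but all lower. Nfil3 differed by 1.13 and Zbtb32, a zinc finger repressor of activated lymphocytes, by 1.06, while the master factors Tbx21 (−0.10), Gata3 (−0.26) and Bcl6 (−0.12) did not pass; these 3 were chosen after their values were seen. Homing receptors and integrins were higher in 12 of 30 cases and lower in 2, among them the chemokine receptor Ccr4 (1.41), the TGF-beta activating integrin Itgb8 (1.29) and the adhesion molecule Alcam (0.93).

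Costimulatory and inhibitory receptors were higher in 12 of 27 cases and lower in 3, beside 4.57% and 2.19% of all genes. Their median was 0.45. Cd86, a ligand of CD28 and CTLA4 that activated T cells can carry, read 9.26, 9.56 and 9.61 in nTregs and 7.57, 7.35 and 7.52 in CD4 cells, a difference of 1.99 (SE 0.13; adjusted p 5.59e-07, limma) with no overlap. Tnfrsf4 (OX40) differed by 1.36. Cytokine receptors were mixed, with 6 higher and 5 lower of 26. The decoy receptor Il1r2 differed by 2.09 and Il23r by 2.06, while Tgfbr3 and Il6ra were on the lower side.

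Actin regulators were higher in 8 of 29 cases and lower in 2, beside 4.57% and 2.19% of all genes. Their median was 0.09. Beside Enah, Frmd5 and Myo1e, the actin-severing protein Scin lay between 7.68 and 8.44 in nTregs and read 6.69, 6.33 and 6.51 in CD4 cells, a difference of 1.53 (SE 0.16; adjusted p 2.85e-05, limma). Of the 29 genes, 19 did not pass. Pfn1 (0.00), Cfl1 (−0.01) and Arpc2 (0.00), picked after their values were seen, were level. Within the Ena/VASP family, Vasp differed by 0.12 and did not pass, and Evl was lower, at −0.78.

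Among T cell receptor signalling genes, 2 of 26 were higher (7.69%, beside 4.57% of all genes) and 3 lower (11.5%, beside 2.19%). Rgs1 (1.64) and Rgs2 (1.26), which damp G protein signals, were the higher ones, and Themis the lowest. The lower count was 1 without CD4 AZA 1 and 9 without nTreg PBS 1. Immediate early factors were higher in 6 of 21 cases and lower in 1, with Dusp4, Fosl2 (1.39) and Fos (1.15) in front. The 6 became 11 without nTreg PBS 1 and 3 without CD4 AZA 3, nTreg AZA 2 or nTreg AZA 3. STAT and SOCS genes counted 3 higher and 1 lower of 18, led by the cytokine-induced inhibitor Socs2 (1.29). Socs2 alone was called without CD4 AZA 1, and 2 genes were without CD4 AZA 3 or any 1 nTreg AZA array.

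NF-kB is a family of dimeric factors held in the cytoplasm by IkB inhibitors until receptors such as 4-1BB or OX40 release them, and Nfkb2 and Relb form its noncanonical arm. With AzaC, 11 of 19 NF-kB subunits and regulators were higher in nTregs and 0 lower, with a median of 0.56 (12 higher and 0 lower at an unadjusted p under 0.05, where 10.7% and 9.8% of all genes were). The count stayed between 9 and 11 when each array was left out. Nfkb2 read 10.77, 10.94 and 10.68 in nTregs and 9.49, 9.32 and 9.06 in CD4 cells, a difference of 1.51 (SE 0.20; adjusted p 0.000237, limma). The inhibitor Nfkbie read 8.85, 9.02 and 8.85 against 8.07, 7.89 and 7.91, a difference of 0.95 (SE 0.11; adjusted p 7.91e-05, limma). The groups were apart for both genes, as they were for 32.3% of all genes. The apoptosis inhibitor Birc3 differed by 0.95 and the inhibitor Nfkbia by 0.80.

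Cell cycle genes ran the other way, and of all genes 2.19% were called lower. Of 24 G2/M and mitotic genes, 17 were lower in nTregs and 0 higher by limma (21 and 0 at an unadjusted p under 0.05), with a median of −0.54, and all 24 differences were negative. Ttk, a spindle checkpoint kinase, differed by −0.99 (SE 0.12; adjusted p 0.000138, limma), the kinetochore motor Cenpe by −0.65, the topoisomerase Top2a by −0.56 and cyclin Ccnb2 by −0.53. Averaged over the 24 genes, the nTreg AZA arrays lay between 9.95 and 9.99 and the CD4 AZA arrays between 10.40 and 10.63, without overlap. The count of lower genes was 11 without CD4 AZA 2 and at most 20 without any other array. The proliferation antigen Mki67, at −0.45, was called with all arrays and not without CD4 AZA 1, CD4 AZA 2, nTreg AZA 1 or nTreg AZA 2 (adjusted p 0.0565 to 0.115). Of 23 G1/S and replication genes 5 were lower and 0 higher by limma (9 and 0 at an unadjusted p under 0.05), led by the licensing factor Cdc6 (−0.78); 2 or 3 were lower without CD4 AZA 2 or any 1 nTreg AZA array.

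Several lists held few called genes or rested on single arrays. The shares to set beside them are those of all genes, 4.57% higher and 2.19% lower. Targets of p53 were higher in 5 of 23 cases and lower in 0 by limma (8 and 0 at an unadjusted p under 0.05), with the death receptor Fas (0.78) clearest. Their count was 2 without any 1 nTreg AZA array, CD4 AZA 1, CD4 AZA 3 or CD4 PBS 1, and 3 without CD4 PBS 2, CD4 AZA 2 or nTreg PBS 2. Glycolysis and hypoxia genes were higher in 4 of 21 cases. That count was 1 without CD4 AZA 1, CD4 AZA 3 or nTreg AZA 3, 2 without CD4 PBS 2, CD4 AZA 2, nTreg AZA 1 or nTreg AZA 2, and 7 without nTreg PBS 1. Interferon-stimulated genes were higher in 4 and lower in 1 of 27 cases, with the GTPases Gbp5 (1.05) and Gbp3 (0.87) highest and Ifit2 (−0.57) lower; 2 were higher without CD4 AZA 1, CD4 AZA 3 or nTreg AZA 3. Of 17 DNA methylation genes, the stress gene Gadd45b (1.05) was higher and Tet1 (−0.75) and Hells (−0.75) lower, and 4 were lower without nTreg PBS 1. Dnmt1, the maintenance methyltransferase, lay between 10.69 and 11.04 in nTregs and between 11.11 and 11.33 in CD4 cells, a difference of −0.36 that did not pass (adjusted p 0.279, limma). Of 22 genes of AzaC uptake and metabolism, 2 were higher and 2 lower; the deoxycytidine kinase Dck (−0.49) and the deaminase Dctd (0.60) both lost the call without nTreg AZA 3, which left 0 called, and Dck also without CD4 AZA 3 or nTreg AZA 1. Without CD4 AZA 3 or nTreg AZA 1 the list's count was 1, and without CD4 AZA 2 or nTreg AZA 2 it was 2. Imprinted genes counted 1 of 22, Plagl1, a share at the background (2 without nTreg PBS 1). For germline genes silenced by DNA methylation the count was 0 of 24 by limma, and the differences lay between −0.41 and 0.23. At an unadjusted p under 0.05, 0 were higher and 3 lower, and 1 was called lower without CD4 PBS 3 or nTreg AZA 2.

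Markers of other cell types moved in part, where 4.57% of all genes were called higher and 2.19% lower. Cd8a read 8.32, 8.17 and 8.24 in nTregs and 6.66, 7.09 and 6.91 in CD4 cells, a difference of 1.36 (SE 0.19; adjusted p 0.000454, limma), and Cd8b1 read 11.17, 11.06 and 11.20 against 9.56, 9.88 and 10.17, a difference of 1.27 (SE 0.15). The groups were apart for both genes, although the gate took CD4+ cells. Averaged over these 2 genes, the level lay between 9.62 and 9.75 in nTregs and between 8.11 and 8.54 in CD4 cells with AzaC, and between 8.35 and 8.96 in nTregs and between 8.46 and 8.55 in CD4 cells under PBS. Of CD4 T cell markers 1 of 8 was called (Cd2, 0.68; 1 higher and 2 lower without nTreg PBS 1), and Cd4 itself at −0.40 did not pass. Of 22 myeloid and dendritic markers 6 were higher, among them the class II genes H2-Aa (1.15), H2-Ab1 (1.11) and H2-Eb1 (0.79) and the protease Ctss (0.82). The myeloid list averaged 7.03 to 7.07 in nTregs and 6.86 to 6.91 in CD4 cells. Its 16 members that did not pass included Cd14 (0.17), Csf1r (−0.21), Lyz2 (−0.37) and Itgam (−0.15), which are picked examples. B cell markers counted 1 of 12 (Cd79b, 1.08), with Cd79a (−0.08) and Ms4a1 (0.13) not called and list means of 6.32 to 6.37 against 6.21 to 6.37. Of NK and gamma-delta markers 1 of 10 was called, Fcer1g (0.54), and not without CD4 AZA 1, CD4 AZA 2 or any 1 nTreg AZA array, and of erythroid and platelet markers 0 of 5 by limma (0 higher and 1 lower at an unadjusted p under 0.05). The part of such cells in the granule, costimulation and cytokine receptor results was not tested.

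Under PBS the same contrast called 1777 genes (8.01%), 864 higher in nTregs (3.9%) and 913 lower (4.12%), and the 2 comparisons share no arrays. Of the genes called with AzaC, 722 were called in the same direction under PBS, 462 higher and 260 lower. That is 48.2% of the AzaC calls and 40.6% of the PBS calls. Of the 289 AzaC calls of 2-fold or more, 230 were also called under PBS in the same direction. Across genes, the differences correlated at r = 0.465 over all 22180 genes and at 0.843 over the genes called with AzaC. The called genes were selected for their AzaC differences, and such a selection by itself raises r. Both values are a description in which genes are not independent replicates. Frmd5 differed by 3.08 under PBS and by 3.41 with AzaC, Acpp by −2.24 and −2.38, Nt5e by 2.10 and 2.14, and Ikzf2 by 1.96 and 2.20. The 771 genes called with AzaC alone are not thereby different between treatments, since 13 of them passed the test of the difference itself.

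**Figure D3:**
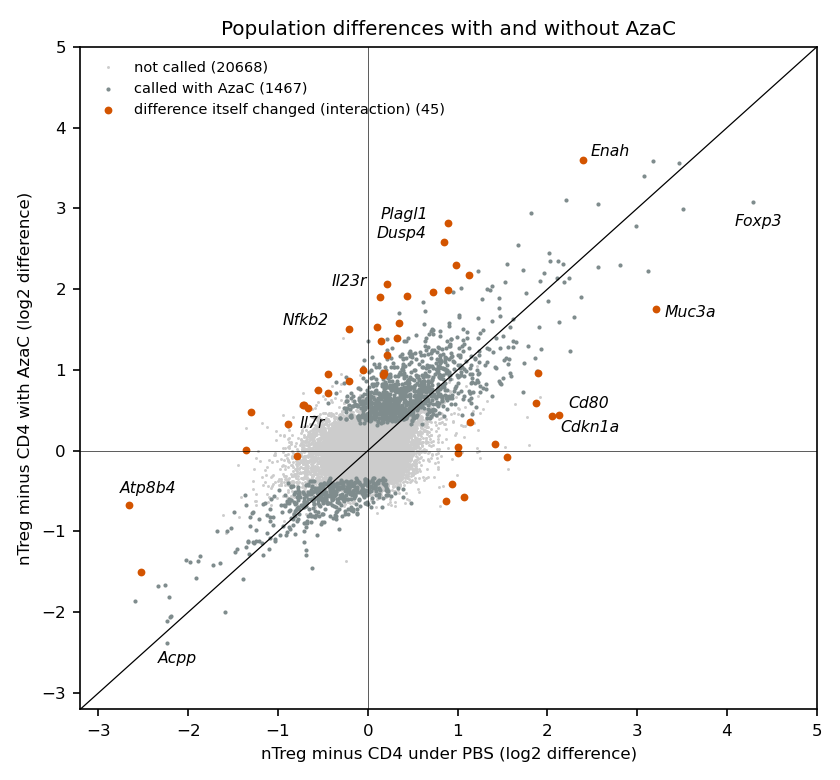
Difference nTreg minus CD4 (log2) under PBS on the horizontal axis and with AzaC on the vertical axis, for 22180 genes; the diagonal marks equal differences, dark points are genes called with AzaC and orange points the 45 genes whose difference itself changed. Enah, Plagl1 and Dusp4 stand above the diagonal and Cd80, Cdkn1a and Muc3a below it.

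That test, the interaction, called 45 genes (0.203%), 32 with a difference shifted toward nTregs by AzaC (0.144%) and 13 shifted away (0.0586%). At an unadjusted p under 0.05 there were 3871 genes (17.5%). The count depended on single arrays, from 9 without nTreg AZA 1 to 69 without nTreg PBS 1, and moved by over 1.5 times without any array but nTreg PBS 3. Centring each array on its median shifted the median of all genes in this contrast from −0.04 to 0.09 and gave 82 genes shifted toward nTregs and 7 away. The same centring turned the PBS split into 583 higher and 1415 lower genes.

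Plagl1, an imprinted zinc finger factor, had the smallest p. It read 8.90, 9.07 and 9.24 in nTreg AZA, 6.41, 6.13 and 6.23 in CD4 AZA, 6.73, 6.91 and 6.68 in nTreg PBS and 5.92, 5.89 and 5.84 in CD4 PBS. The nTreg AZA arrays stood alone at the top, and the population difference was 2.81 with AzaC and 0.89 under PBS, an interaction of 1.92 (SE 0.16; adjusted p 0.000268, limma). Enah was higher in nTregs under both treatments, at 8.50, 8.23 and 8.33 in nTreg PBS and 5.84, 5.99 and 6.04 in CD4 PBS, and its difference was wider with AzaC by 1.20 (SE 0.15; adjusted p 0.00493, limma). Il23r, the receptor subunit for IL-23, read 7.69, 7.04 and 7.05 in nTreg AZA and no more than 5.34 on any other array. Its interaction was 1.85 (adjusted p 0.0198, limma). The call was lost without 6 of the 12 arrays, at most to an adjusted p of 0.0693 without CD4 AZA 1. It was also lost without moderation of the variances (adjusted p 0.113, unmoderated t-test). The milk protein gene Csn2 followed the same pattern at a dim level, with nTreg AZA at 6.63, 6.52 and 6.91 and an interaction of 1.77, called without 5 of the 12 arrays in turn.

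Il7r changed sides. It read 11.20, 11.13 and 11.10 in nTreg AZA and 10.53, 10.66 and 10.64 in CD4 AZA, but 10.57, 10.46 and 10.64 in nTreg PBS and 11.22, 11.19 and 11.24 in CD4 PBS. The difference was 0.53 with AzaC and −0.66 under PBS, an interaction of 1.20 (SE 0.13; adjusted p 0.00194, limma) that was called without each of the 12 arrays in turn. In all, 5 genes were called in opposite directions: Il7r, Nfkbie (0.95 and −0.44), the chemokine receptor Cxcr6 (0.56 and −0.71), Ly6g5b (0.76 and −0.55) and Ncoa7 (0.71 and −0.44). The phospholipid transporter Atp8b4 was lower in nTregs under both treatments, by −2.66 under PBS and −0.68 with AzaC, and its interaction of 1.99 (adjusted p 0.00311, limma) was called without every array in turn. The AzaC difference alone lost its call without any CD4 AZA array or without nTreg AZA 2 or 3 (adjusted p up to 0.122). Klrd1 (CD94, an NK receptor chain) shifted by 1.78, from −1.30 to a difference of 0.48 that did not pass.

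Among the genes shifted away from nTregs, Cd80, a ligand of CD28 and CTLA4, read 10.78, 10.78 and 10.90 in nTreg AZA and 10.68, 10.15 and 10.30 in CD4 AZA. In nTreg PBS it read 11.08, 10.98 and 10.96, and in CD4 PBS 8.71, 8.84 and 9.08. CD4 PBS was thus the low group, and the difference was 2.13 under PBS and 0.45 with AzaC, an interaction of −1.69 (SE 0.19; adjusted p 0.00195, limma). Cdkn1a, the p53-induced cell cycle inhibitor p21, showed the same form. It lay between 12.07 and 12.22 in nTreg AZA, 11.64 and 11.82 in CD4 AZA, 11.58 and 11.95 in nTreg PBS and 9.67 and 9.87 in CD4 PBS, so that the difference was 2.05 under PBS and 0.43 with AzaC. Its interaction was −1.62 (SE 0.16; adjusted p 0.00126, limma), while the AzaC difference itself (adjusted p 0.0414) was lost without any 1 of the 6 AzaC arrays and without CD4 PBS 1 or 2. Muc3a (−1.45), the cytochrome oxidase subunit gene Cox6b2 (−1.63) and Dglucy (−1.36) were the other leading genes of this direction. Foxp3 had a difference of 4.29 under PBS and 3.08 with AzaC. Its interaction of −1.21 missed the threshold (adjusted p 0.0517, limma) and passed it without nTreg PBS 1 (0.0105). The Foxp3 mean was 12.34 in nTreg PBS and 12.69 in nTreg AZA, so it was not lower in nTregs with AzaC. In the CD4 cells it was 8.05 under PBS and 9.62 with AzaC.

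**Figure D4:**
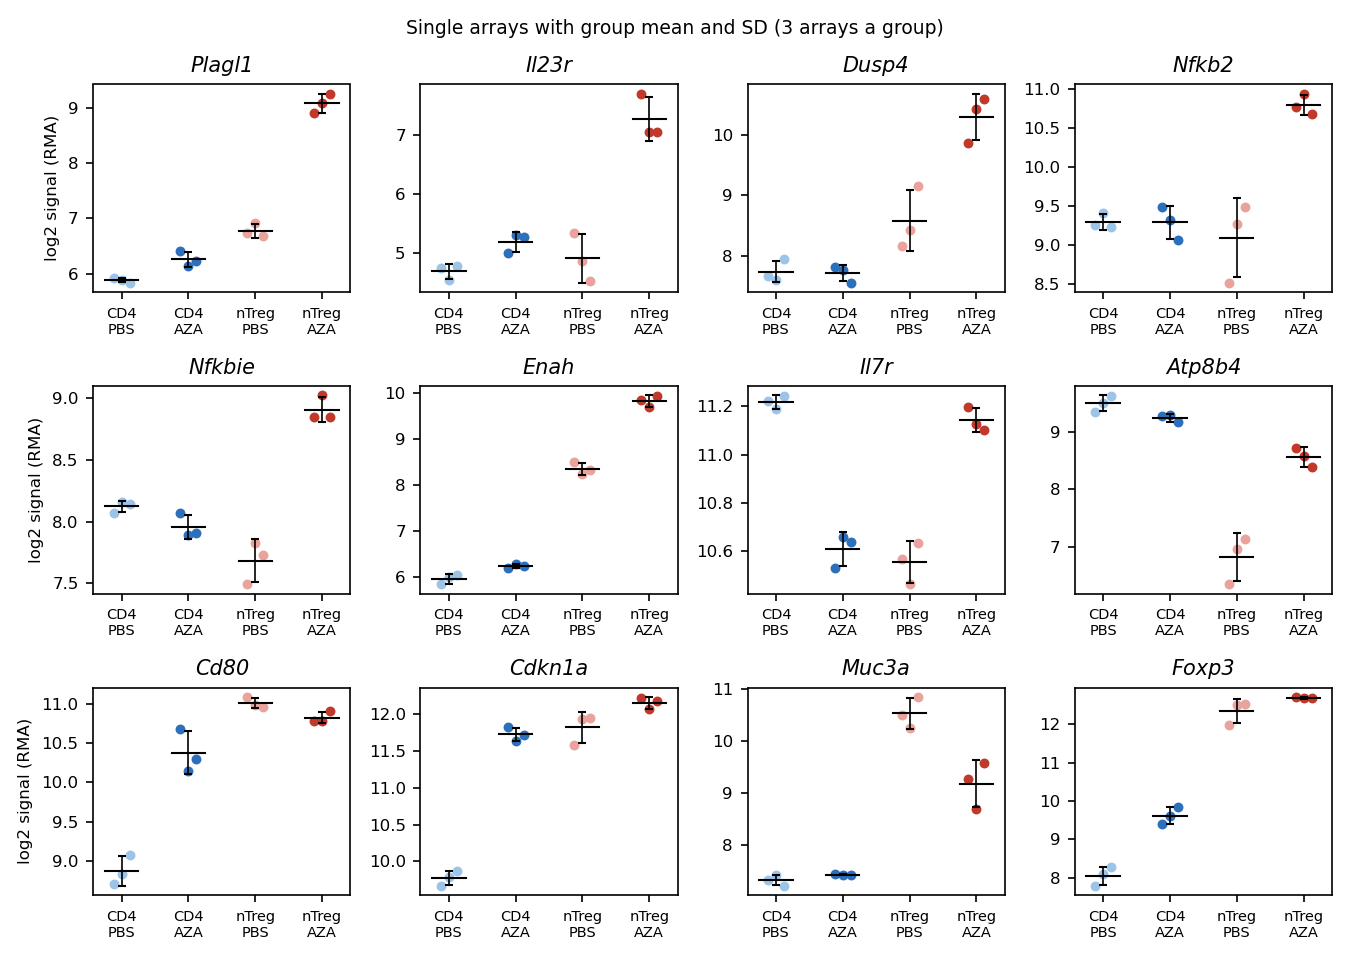
Log2 signal of 12 genes on every array of the 4 groups, with the group mean (long bar) and SD (short bars), 3 arrays a group; vertical axes differ between panels and do not start at 0. Plagl1, Il23r, Dusp4 and Nfkb2 are highest in nTreg AZA, whereas Cd80 and Cdkn1a are lowest in CD4 PBS.

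The counts of the NF-kB list differed between treatments. Under PBS 3 of 19 members were higher in nTregs and 3 lower, with a median of −0.12, beside the 11 higher with AzaC. Of all genes, 3.9% were called higher and 4.12% lower under PBS. The interaction called 2 members, Nfkb2 (1.71, adjusted p 0.0253) and Nfkbie (1.39, adjusted p 0.00194, limma), and 14 of 19 were shifted toward nTregs at an unadjusted p under 0.05, where 8.16% of all genes were, and 0 away. Without nTreg PBS 1 the PBS counts were the same, the PBS median was 0.03 and 13 of 19 were shifted toward nTregs. The Nfkb2 call was kept without 3 of the 12 arrays in turn and the Nfkbie call without all 12. Averaged over the list, nTreg AZA arrays lay between 9.85 and 9.94, CD4 AZA between 9.27 and 9.37, nTreg PBS between 8.94 and 9.45 and CD4 PBS between 9.36 and 9.39, so nTreg AZA was the group that stood apart.

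Genes of cholesterol and fatty acid synthesis were called between the populations under PBS. The AzaC count was 0 of 22 genes by limma, beside 6.75% of all genes. At an unadjusted p under 0.05, 3 were higher and 1 lower, beside 10.7% and 9.8% of all genes. Without nTreg PBS 1, 1 higher and 2 lower genes were called. The median with AzaC was 0.03 and turned to −0.05 under the second quantile normalization. Under PBS 11 of 22 were lower in nTregs and 0 higher by limma, beside 4.12% and 3.9% of all genes. At an unadjusted p under 0.05, 18 were lower and 0 higher, beside 11.9% and 11.1% of all genes. The PBS median was −0.50. Without nTreg PBS 1 the called PBS counts were the same and the median was −0.42. The interaction called the desaturase Scd1 (1.22, adjusted p 0.0198, limma), and all 22 interactions were positive. At an unadjusted p under 0.05, 15 of 22 were shifted toward nTregs, beside 8.16% of all genes. Of the 22, 13 passed that level without nTreg PBS 1. The list averaged 9.40 to 9.45 in nTreg AZA, 9.29 to 9.52 in CD4 AZA and 9.10 to 9.55 in nTreg PBS, against 9.93 to 10.01 in CD4 PBS, the group that stood apart here.

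The mitotic list, by contrast, was lower in nTregs under both treatments, with 18 of 24 genes lower under PBS (15 without nTreg PBS 1) and a median of −0.50 there, and the interaction called 0 of its genes by limma, with 0 at an unadjusted p under 0.05. Treg surface molecules were higher in 19 of 26 cases under PBS against 20 with AzaC. The shares of all genes called under PBS were 3.9% higher and 4.12% lower. For p53 targets 9 of 23 were higher under PBS and 5 with AzaC, and the interaction called Cdkn1a and put 9 of 23 at an unadjusted p under 0.05 in the negative direction, where 9.29% of all genes were. Without nTreg PBS 1 the p53 count under PBS was 13, the interaction called 2 in the negative direction, and 12 passed the unadjusted level.

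**Figure D5:**
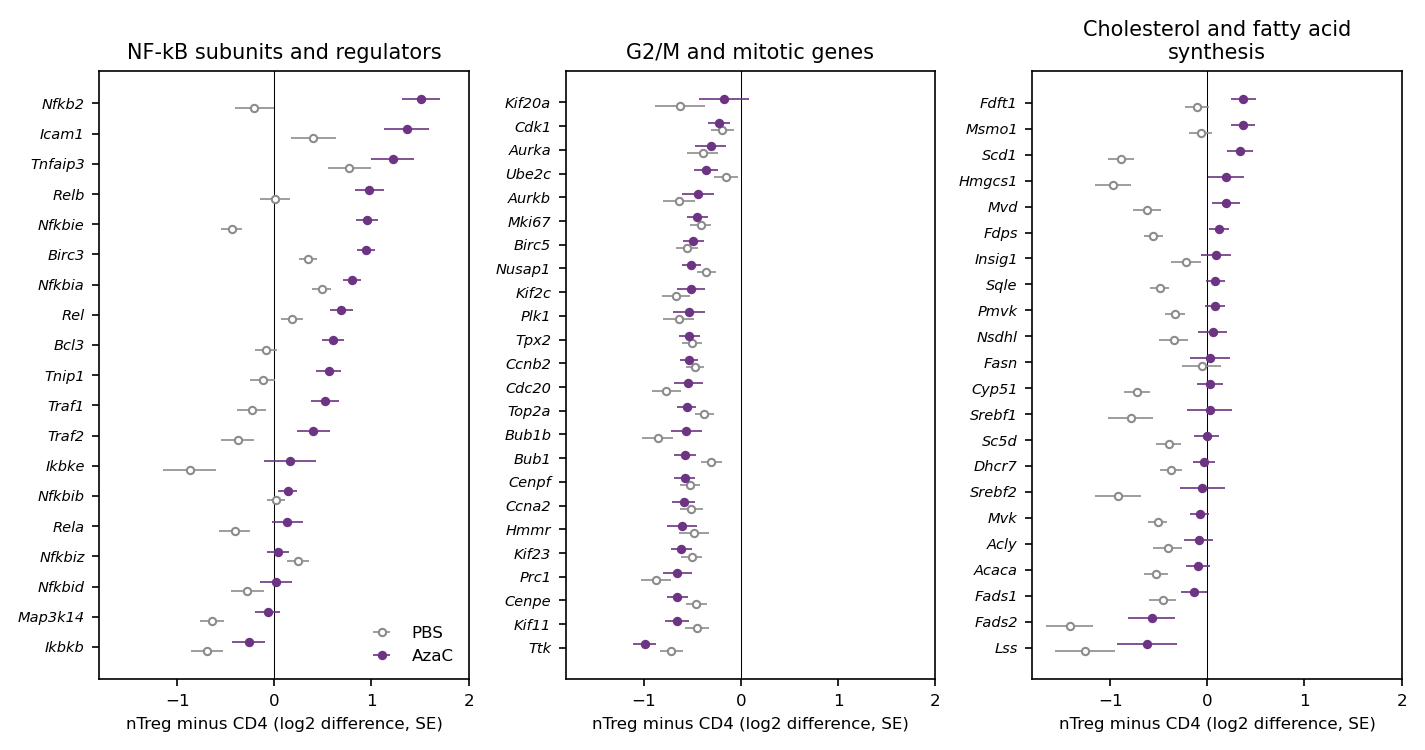
Difference nTreg minus CD4 (log2, with SE) for every measured gene of 3 lists, open circles under PBS and filled circles with AzaC. The NF-kB genes lie mostly to the right of 0 with AzaC and on both sides under PBS, the G2/M genes lie left of 0 in both, and the cholesterol genes lie around 0 with AzaC and to the left under PBS.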

How the data were processed

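The submitters' processing notes name Affymetrix Expression Console and RMA, without versions, as the authors' processing. The deposited values are log2 probe set signals, background-corrected, quantile-normalized and summarised by RMA, and were used as deposited. Of 41345 rows, 23521 carry 1 gene symbol, 1814 several and 16010 are not listed in the array's probe table; 1082 genes had several such rows, and the brightest was kept. This left 22180 genes, 21994 of them with an identifier in the RefSeq gene table (GRCm38.p6). No dim genes were left out, and the genome build was not given in the sources used here.

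A linear model of the 12 arrays with a separate mean for each of 4 groups (8 residual and 5.95 prior degrees of freedom) was run in R 4.3.3 by limma 3.58.1; random blocks used statmod 1.5.0. Adjusted p-values of single genes are limma's, after Benjamini-Hochberg over all genes, and the procedure was tested on simulated data. The number of arrays, 3 a group, limits the precision. No 2 arrays were identical.

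The members and the 33 gene lists (747 entries, 685 measured) were chosen with earlier results of these data known. Named are the 15 largest differences in each direction among called genes without overlap, the 5 largest interactions in each direction, up to 4 called genes a list by smallest p, and 20 genes fixed by name. Passed over were predicted genes, small RNAs, receptor segments and histone genes. Alternatives were a dim filter, other normalizations, each array left out, other row choices, fewer arrays, replicate blocks, array weights and other variance moderation. Promoter windows are RefSeq's (GRCm38.p6). A genome was not used here.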

Additional observations from a re-analysis of the deposited data

Results flagged for a closer look

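The difference between nTregs and CD4 cells itself differed between AzaC and PBS for 45 genes by the interaction test (adjusted p under 0.05, limma). Of these, 18 are among the genes named. Shifted toward nTregs with AzaC were Atp8b4 (1.99), Plagl1 (1.92), Il23r (1.85), Klrd1 (1.78), Csn2 (1.77), Dusp4 (1.74), Nfkb2 (1.71), Scin (1.42), Nfkbie (1.39), Enah (1.20), Il7r (1.20), Cd86 (1.10) and Slc16a5 (1.03). Shifted away were Cd80 (−1.69), Cox6b2 (−1.63), Cdkn1a (−1.62), Muc3a (−1.45) and Dglucy (−1.36). Atp8b4, Plagl1, Nfkbie, Enah, Il7r, Cd80 and Cdkn1a were called without each of the 12 arrays in turn. Klrd1 was called without 10 of the 12, Il23r without 6, and Csn2, Scin and Dglucy without 5. Nfkb2, Cd86 and Cox6b2 were called without 3, Muc3a without 2, and Dusp4 and Slc16a5 without 1. Where leaving out an array cost the call, the adjusted p rose at most to 0.155 (Slc16a5, without nTreg AZA 3, limma). For Dusp4 it reached 0.151 (without CD4 AZA 3), and no interaction changed its sign. Without moderation of the variances, Plagl1, Nfkbie, Enah, Il7r and Cdkn1a kept the call, and the other named genes lost it. Among those lost were Atp8b4 (adjusted p 0.0872, unmoderated t-test), Cd80 (0.0559) and Dusp4 (0.163).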

How the results depend on the processing

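With AzaC, calls came to 2350 with only the arrays compared, 3500 with array weights and 289 at a log2 difference of at least 1, and ranged from 896 to 2467 without single arrays. For PBS they were 648 with only the arrays compared, 1120 without moderation, 279 at a log2 difference of at least 1, and 1042 to 1862 without single arrays. The interaction count was 89 with centred arrays, 13 over every row of the table, 401 with array weights, 6 without moderation, 28 with a block for each co-culture (number within treatment, chosen after seeing the data), and 9 to 69 without single arrays. With array weights 57.3% of the AzaC calls were higher, against 67.6%. Whether the replicate numbers pair the samples could not be settled. Same-numbered nTreg and CD4 arrays correlated in their deviations at 0.0335, 0.0915 and 0.0273 with AzaC. Under PBS these correlations were 0.0396, 0.0268 and 0.0214. All were small, yet each nTreg array correlated best with the CD4 array of its own number. A fixed replicate block gave 1434 AzaC calls, a random replicate block 1481 and the co-culture block 1334. Of the 122 genes called with AzaC that the naming rule picked, 95 kept the call under every alternative run for them, and none of these genes changed direction; the other 27 lost the call under at least 1 alternative, among them genes that are counted in the lists but not described singly.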

Other observations

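Below the 15 leading genes, the ranking went on with molecules of several kinds, named here after their values were seen. Flicr, a noncoding RNA gene next to Foxp3, was higher in nTregs by 2.09, and the proteoglycan Sdc4 by 2.31, the matrix protein Ecm1 by 2.28, the TNF receptor family member Tnfrsf8 (CD30) by 2.00 and the triglyceride-forming enzyme Dgat1 by 2.04. On the lower side stood the T cell kinase Txk (−1.15), the surface receptor Cd7 (−1.29), the sialyltransferase St8sia1 (−1.36) and the guanylate cyclase subunit Gucy1a1 (−1.29). Each of these 9 genes was called.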
